A study of Mus musculus with 9 samples.

Results

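Adipose tissue of male C57BL/6J mice that had received electroacupuncture was compared with adipose tissue of the group titled MPX, gene by gene, in 6 RNA sequencing libraries out of 9 in the series. The 3 electroacupuncture libraries carry the treatment label EA and the title numbers 5, 7 and 8, and the 3 MPX libraries carry no treatment label and the numbers 2, 5 and 7. All were collected at day 21, and every library of these groups is labelled with the same sex, strain and tissue. The third group, CPX, was left out of the test. The series text names a normal diet, a high-fat diet, and a high-fat diet with electroacupuncture, but the labels do not say which diet MPX stands for. A difference between EA and MPX may therefore hold a difference of diet as well as of treatment, and these cannot be told apart here. Neither the age of the mice nor the fat depot is stated, and no label says that each library came from its own mouse. The p-values therefore measure the spread among 3 libraries a group, which may in part be technical.

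Electroacupuncture passes a small electrical current between needles inserted at acupuncture points, and it is studied as a treatment of obesity. White adipose tissue stores triglyceride in adipocytes, which also secrete hormones such as leptin and adiponectin. Around the adipocytes lie a basement membrane rich in type IV collagen and laminin, capillaries, progenitor cells and white blood cells, chiefly macrophages. In obesity the adipocytes enlarge, leptin rises, matrix is laid down and macrophages gather. Fat depots also hold lymph nodes and small lymphoid clusters, so the share of lymphocytes in a piece of fat depends in part on where it was taken.

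The table covers 3958 genes, the most abundant ones of these libraries, and all of them entered the test. Levels are in CPM, a gene's counts scaled to a common total of the listed counts, after TMM scaling, a method that corrects for differences in composition between libraries. The listed counts ran from 12652003 to 14208853 per library, and the median gene had 1701 counts in a library. Adipocyte markers were abundant, as the tissue label says: 19 of 20 adipocyte identity genes were listed, summing to 74321 to 80722 CPM in MPX and 47072 to 73719 CPM in EA. Of the lists for skeletal muscle, mesothelium, epididymal and mammary epithelium, neutrophils, thermogenic adipocytes and retina no gene was among the listed ones, so these were not analysed here. Retinal genes were looked for because the protocol text names the retina as the tissue removed, although the tissue label is adipose. EA 8 stood apart from the other libraries, with a Spearman correlation across genes of 0.53 to 0.69 with the MPX libraries and 0.79 to 0.82 with EA 5 and EA 7, against 0.87 to 0.95 within MPX. The median coefficient of variation over genes was 14.9% in EA and 10.8% in MPX.

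Between EA and MPX, 84 of 3958 genes (2.12%) passed edgeR's quasi-likelihood test at an adjusted p under 0.05. Of these, 62 (1.57%) were higher in EA and 22 (0.556%) lower, and in all 84 the lowest library of one group lay above the highest library of the other. Ranges that do not overlap were common in these libraries, with 784 genes (19.8%) higher and 839 genes (21.2%) lower in EA by that measure alone. The largest falls among called genes were in membrane, matrix and sterol genes, Lhfpl2, Col5a3, Adamts5 and Hmgcs1. The rises covered lymphocyte genes, resident macrophage receptors, and 3 metabolic enzymes, Prodh, Aacs and Acacb. Without EA 8 the same test called 30 genes (26 higher, 4 lower), of which 29 were among the 84. Without MPX 7 it called 0 (712 genes at an unadjusted p under 0.05, against 1271), so no call below held without that library. Without MPX 5 it called 15, without EA 7 19 and without EA 5 234. DESeq2 called 1295 genes, limma voom 0 (1206 unadjusted), and edgeR with the CPX libraries in the fit 0 (202 unadjusted). All 84 genes kept their direction in each of these fits.

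**Figure D1:**
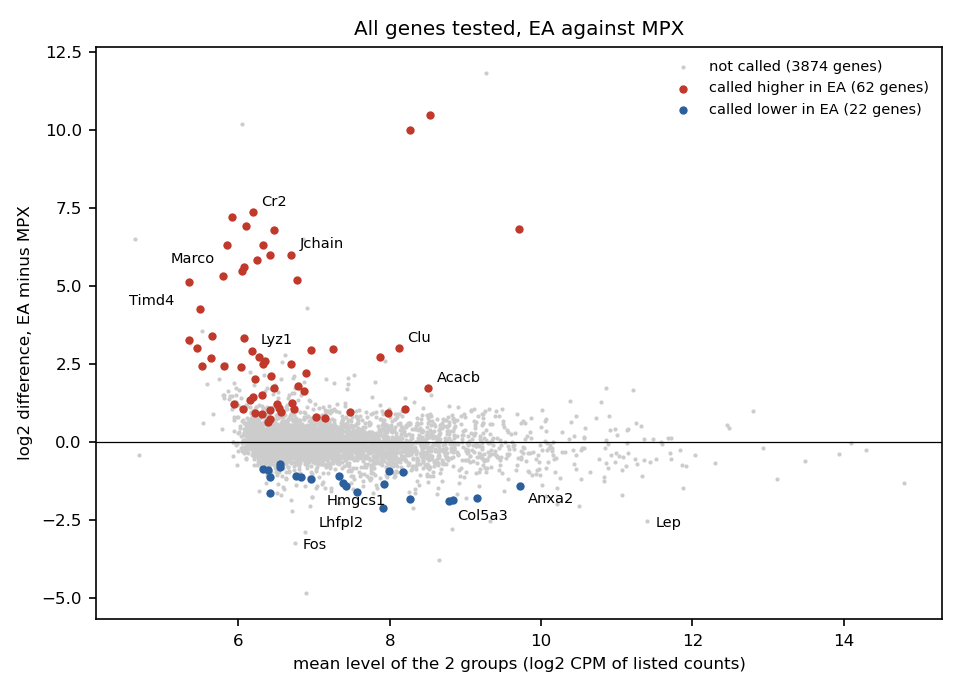
Each point is 1 of 3958 genes, with the mean level of EA and MPX on the x axis (log2 CPM of listed counts) and the log2 difference EA minus MPX on the y axis. The 62 genes called higher lie at or above 0.66, and the 22 called lower lie between -2.11 and -0.71.

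Among the called falls were 5 genes of the extracellular matrix or named for it, Col5a3, Col15a1, Lox, Adamts5 and Mxra8, a grouping made after the calls were seen. In the values that follow, MPX libraries are given in the order 2, 5 and 7 and EA libraries in the order 5, 7 and 8. Col5a3, the alpha 3 chain of the fibril collagen type V, stood at 705, 669 and 713 CPM in MPX and 271, 185 and 104 CPM in EA (log2 difference -1.90, SE 0.34, edgeR adjusted p = 0.0478). Col15a1, a collagen of the zone next to basement membranes, stood at 685, 922 and 1055 CPM in MPX and 358, 211 and 196 CPM in EA (log2 difference -1.80, SE 0.30, edgeR adjusted p = 0.0447). Every EA library lay below every MPX library for these 2 collagens.
Lox, the enzyme that crosslinks collagen and elastin, stood at 313, 388 and 346 CPM in MPX and 176, 139.5 and 94.1 CPM in EA (-1.35, edgeR adjusted p = 0.0478). Adamts5, a protease that cleaves matrix proteoglycans, stood at 549, 902 and 689.5 CPM in MPX and 181, 269 and 142 CPM in EA (-1.85, edgeR adjusted p = 0.0446). Without EA 8, Col5a3 still passed, but Col15a1, Lox and Adamts5 did not, with log2 differences of -1.64, -1.15 and -1.67. Mxra8, a cell surface protein whose name comes from matrix remodelling, fell as well (-1.09, edgeR adjusted p = 0.0224), from 197, 237 and 225 CPM in MPX to 92.9, 114 and 104 CPM in EA. In the authors' table Col15a1 lies on chromosome 4, 47208161 to 47313167, plus strand, Col5a3 on chromosome 9, 20770050 to 20815067, minus strand, and Adamts5 on chromosome 16, 85856173 to 85901828, minus strand, all mm10 and protein coding.

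Other called falls were genes of the cell surface and cytoskeleton. Lhfpl2, a membrane protein with several transmembrane segments, had the largest called fall, from 224, 560.0 and 389 CPM in MPX to 82.0, 109 and 80.4 CPM in EA (log2 difference -2.11, SE 0.34, edgeR adjusted p = 0.0446). Alcam, an adhesion molecule, stood at 88.1, 159.8 and 139 CPM in MPX and 46.0, 39.6 and 39.5 CPM in EA, and its EA libraries were nearly level with each other (-1.63, edgeR adjusted p = 0.0288). Anxa2, a calcium-dependent membrane-binding protein, stood at 1014, 1313 and 1346 CPM in MPX and 541, 492 and 353 CPM in EA (-1.41, edgeR adjusted p = 0.0453). Rhoc, a small GTPase that controls actin, stood at 149, 164 and 153 CPM in MPX and 81.7, 67.1 and 65.8 CPM in EA and had the smallest p of all genes lower in EA (edgeR adjusted p = 0.0182).
Slc5a3, which carries myo-inositol with sodium, stood at 227, 303 and 328 CPM in MPX and 86.8, 121 and 76.8 CPM in EA (-1.59, edgeR adjusted p = 0.0288). Lrrc8d, a subunit of volume-regulated anion channels, differed by -0.90, and Atp6v0a1, a subunit of the vacuolar proton pump, by -0.91 on the log2 scale. Exons of Slc5a3 overlap those of Mrps6 on the same strand, so reads from the shared stretch may belong to either gene. Over all called genes, 29 of 84 have an exon that overlaps another gene in GENCODE M21, for 12 a protein coding one.

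Signalling and metabolic genes completed the falls. Tshr, the thyrotropin receptor, which adipocytes express, stood at 218, 237 and 292 CPM in MPX and 92.8, 124 and 66.6 CPM in EA (log2 difference -1.40, SE 0.25, edgeR adjusted p = 0.0474). Dusp1, a phosphatase that switches off MAP kinases and is induced within minutes of a stimulus, stood at 241, 196 and 277 CPM in MPX and 94.8, 121 and 74.4 CPM in EA (-1.30, edgeR adjusted p = 0.0447). Rps6ka3, a kinase downstream of ERK, differed by -0.94, and Nek6, a kinase of mitosis, by -0.71. In these 4 genes the groups did not overlap, but the calls of Tshr, Dusp1 and Rps6ka3 were lost whenever any 1 of the 6 libraries was left out.
Hmgcs1, which makes hydroxymethylglutaryl-CoA on the way to cholesterol, stood at 375, 540.4 and 522 CPM in MPX and 188, 129 and 89.3 CPM in EA (log2 difference -1.82, SE 0.30, edgeR adjusted p = 0.0447), the lowest value being in EA 8. Tiparp, an ADP-ribosylating enzyme induced through the aryl hydrocarbon receptor, stood at 104, 105 and 100.4 CPM in MPX and 61.1, 63.2 and 47.0 CPM in EA (-0.85, edgeR adjusted p = 0.0414). S100a16, a calcium-binding protein, differed by -0.78, Dhx32, a helicase-like protein, by -1.10, and Fam198b by -1.18. Dusp1, Nek6 and Dhx32 each overlap an exon of a protein coding gene on the other strand, and no source used here gives the strand setting of the counting. The same overlap was found for Ciita, Coro1a, Cd37 and Limd2, which were called higher and are named below.

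**Figure D2:**
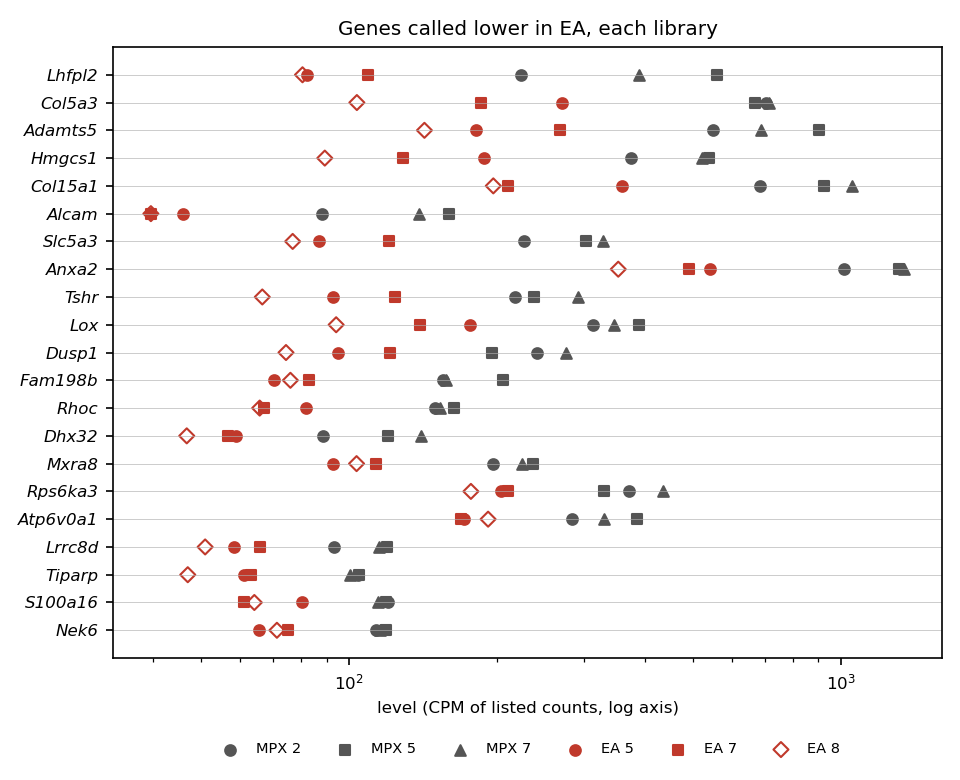
Of the genes called lower in EA, 21 are shown with each library's level on a log axis (CPM of listed counts), MPX in grey and EA in red, with EA 8 as an open diamond. In every gene the 3 EA libraries lie to the left of the 3 MPX libraries, and EA 8 is the lowest of EA in 16 of them.

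Among the 62 genes that rose, 18 belonged to the lists for B cells, antibody-making cells, T cells, lymphoid stroma or class II antigen presentation, and 44 did not. From the former, Cr2, Pax5, H2-Ob, Ighd, Cd79b and Cd79a had the smallest p. Ighd, the heavy chain of the IgD that naive B cells carry, stood at 3.85, 8.25 and 5.36 CPM in MPX and 114, 227 and 298 CPM in EA (edgeR adjusted p = 0.0105). H2-Ob, a class II chaperone subunit found chiefly in B cells, stood at 3.26, 2.94 and 1.86 CPM in MPX and 60.4, 102 and 162 CPM in EA (5.33, edgeR adjusted p = 0.0105). The 10 listed members of the 19 B cell genes summed to 986 to 1851 CPM in MPX and 2669 to 5645 CPM in EA, and none was at 0 counts in any of the 6 libraries. Most of that sum was Cd74, which is also in the class II list. Scaled over all 9 libraries, Cd74 stood at 1499, 711 and 744 CPM in MPX and 1725, 2199 and 3421 CPM in EA. Cd79a stood at 1.63, 3.48 and 0.637 CPM in MPX and 87.0, 144 and 232 CPM in EA. Of the 10 members 9 had positive differences, with a median of 6.16. EA 8 was the highest EA library in all 18 of the lymphoid genes called. Of the 25 genes in the T cell and natural killer cell list only 1 was listed, Coro1a, an actin-binding protein. The rest of that list was not analysed here, so a rise of T cell genes was not shown. In bulk tissue, more cells of a type and more RNA per cell cannot be told apart.

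The other 44 rises included Spib and Itgal, known from white blood cells, a description made after the calls were seen. Spib, a transcription factor of B cells and plasmacytoid dendritic cells, stood at 0.592, 3.10 and 0.596 CPM in MPX and 64.7, 95.1 and 180.2 CPM in EA (log2 difference 6.33, SE 0.75, edgeR adjusted p = 0.0216). Itgal, the alpha chain of the leukocyte integrin LFA-1, stood at 14.5, 9.31 and 12.2 CPM in MPX and 79.2, 106 and 183 CPM in EA (3.35, edgeR adjusted p = 0.0178). Both genes had the order EA 5, EA 7, EA 8 from low to high, as did the B cell genes named above.
Btla, an inhibitory receptor of lymphocytes, differed by 5.15, Ikzf1, the Ikaros transcription factor, by 2.61, and Rac2, the Rac GTPase of blood cells, by 2.96. Itgb7, an integrin chain of gut-homing lymphocytes, differed by 2.44, Cytip, a cytohesin-binding protein of lymphocytes, by 3.01, and Cyfip2, part of the actin-regulating WAVE complex, by 3.40. Limd2 (2.03), Akna (2.51), Stk17b (1.65) and Stk4 (1.10) rose too, the last 2 encoding kinases that are active in lymphocytes. Smaller called rises were those of Mdn1, an ATPase of ribosome assembly (1.36), Zfp318 (1.06), Cd55, which shields cells from complement (1.08), B4galt1, a galactosyltransferase (0.77), and the pseudogene Gm6472 (1.21). Reads of a pseudogene may belong to its parent gene, so the last value is uncertain. Of the 44, 35 had their highest EA value in EA 8, the library with the highest B cell level (41.4% of all genes had theirs there), and the part of lymphocytes in these rises was not tested.

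Also called higher were Marco, Timd4, Cd209b and Lyz1. Marco, a scavenger receptor of resident macrophages, stood at 1.11, 4.65 and 2.90 CPM in MPX and 111, 97.7 and 178 CPM in EA (log2 difference 5.49, SE 0.52, edgeR adjusted p = 0.0105). Timd4, a receptor for dying cells on long-lived resident macrophages, stood at 7.25, 1.96 and 3.87 CPM in MPX and 111, 69.2 and 75.5 CPM in EA, with EA 5 the highest (log2 difference 4.28, SE 0.54, edgeR adjusted p = 0.0227). Cd209b, a lectin that marks macrophages of the splenic marginal zone and of lymph nodes, stood at 58.2, 17.3 and 26.6 CPM in MPX and 329, 257 and 225 CPM in EA and also had its highest value in EA 5 (2.99, edgeR adjusted p = 0.0361). Lyz1, a lysozyme, stood at 12.4, 23.6 and 14.5 CPM in MPX and 136, 150.2 and 98.8 CPM in EA and was lowest in EA 8 (2.93, edgeR adjusted p = 0.0118). It has a close paralog in Lyz2, between which reads could have been split. Marco and Lyz1 passed without any 1 of 5 libraries, but not without MPX 7. Timd4 and Cd209b did not pass without EA 7 or without EA 8. In the CPX libraries, which were left out of the test, Marco stood at 0, 321.5 and 0.473 CPM in CPX 4, 6 and 8, scaled over all 9 libraries. Timd4 stood at 3.79, 372.2 and 23.1 CPM and Cd209b at 34.0, 1038 and 75.7 CPM in the same order. Each was highest in CPX 6, the CPX library richest in B cell transcripts, as were most genes called higher. The part of lymphoid tissue in these rises was not tested.

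The 3 metabolic enzymes named above rose, and in each EA 8 was the lowest of the EA libraries rather than the highest. Prodh, the mitochondrial enzyme that starts the breakdown of proline, stood at 65.1, 61.9 and 63.4 CPM in MPX and 112, 108 and 101 CPM in EA (log2 difference 0.75, SE 0.09, edgeR adjusted p = 0.0227). Aacs, which turns the ketone body acetoacetate into acetoacetyl-CoA for lipid synthesis, stood at 176, 162 and 176 CPM in MPX and 357, 335 and 300.3 CPM in EA (log2 difference 0.95, SE 0.13, edgeR adjusted p = 0.0288). Acacb, the acetyl-CoA carboxylase at mitochondria whose product restrains fatty acid oxidation, stood at 189, 198 and 117 CPM in MPX and 742, 489.8 and 453 CPM in EA (log2 difference 1.74, SE 0.29, edgeR adjusted p = 0.0447). The rises amounted to 1.69-fold for Prodh, 1.93-fold for Aacs and 3.35-fold for Acacb. Prodh and Aacs passed without EA 8 and Acacb did not, at 1.88, and none of the 3 passed without MPX 5 or without EA 7. In the authors' table Prodh lies on chromosome 16, 18060357 to 18090203, minus strand, Aacs on chromosome 5, 125475814 to 125517410, plus strand, and Acacb on chromosome 5, 114146535 to 114250761, plus strand.

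**Figure D3:**
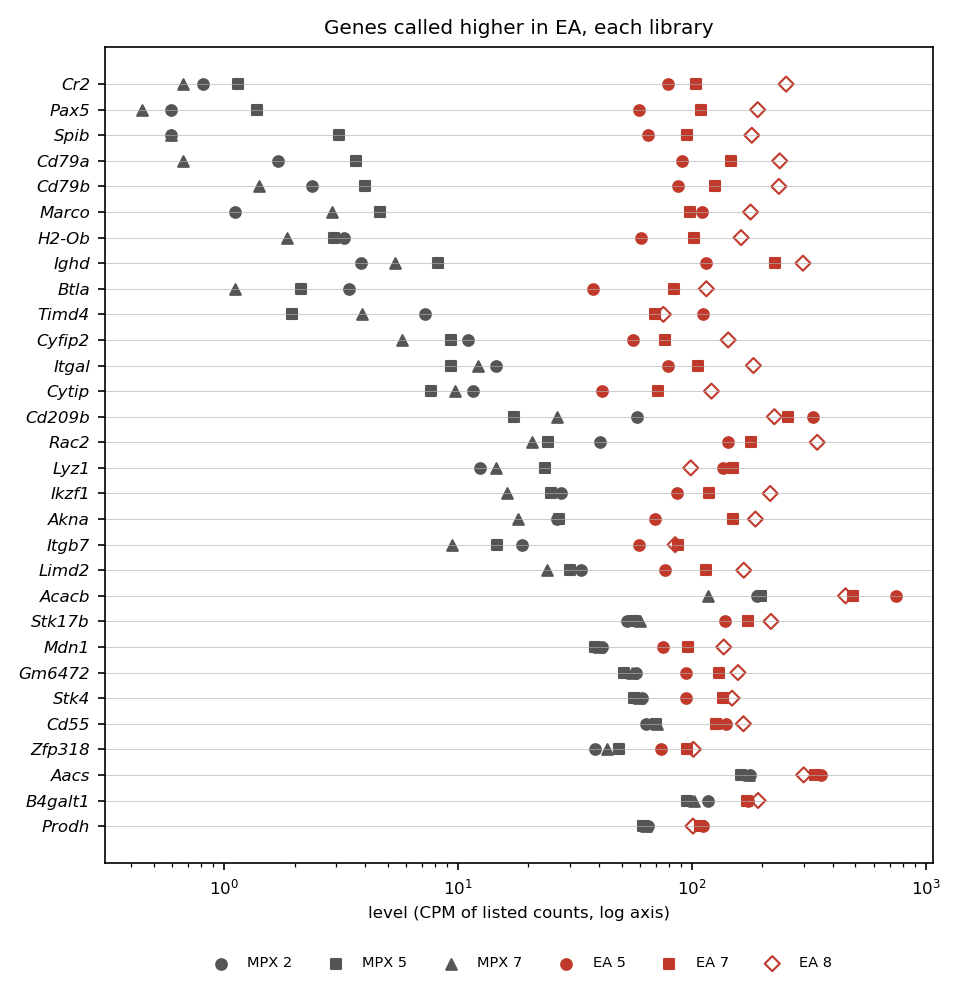
Of the genes called higher in EA, 30 are shown (24 outside the lymphoid lists, 6 within) with each library's level on a log axis (CPM of listed counts), MPX in grey and EA in red. EA 8, the open diamond, is the rightmost EA library for most lymphocyte genes and the leftmost for Prodh, Aacs, Acacb, Cd209b and Lyz1.

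The promoters of called genes were examined for short motifs, because shared sites are one way in which genes can move together. RefSeq promoters of build GRCm38.p6, from 250 bases before the start to 50 after it, were found for 44 of 62 higher and 16 of 22 lower genes. Below are stretches that end before the transcript starts, 5′ to 3′, with only the motif named on each line in capitals. They belong to a sterol gene and a stimulus-induced gene that fell and a white blood cell gene that rose.
Hmgcs1, chr13:119690191-119690280, plus strand, sterol regulatory site: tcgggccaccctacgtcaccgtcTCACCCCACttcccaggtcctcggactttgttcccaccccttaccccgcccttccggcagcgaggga
Dusp1, chr17:26508543-26508632, minus strand, cyclic AMP response element: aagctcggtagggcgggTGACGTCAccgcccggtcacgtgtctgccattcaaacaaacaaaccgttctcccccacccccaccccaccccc
Cd37, chr7:45238840-45238929, minus strand, PU.1 core on the opposite strand: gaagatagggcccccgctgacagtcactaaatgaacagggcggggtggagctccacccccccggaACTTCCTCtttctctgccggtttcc
The sterol site TCACCCCAC (TCACCCCAT was also accepted) is bound by SREBP factors, which switch on cholesterol synthesis when sterol is scarce. It was present in 2 of 16 promoters of lower genes, Hmgcs1 and Tiparp, in 1 of 44 of higher genes and in 37 of 3115 (1.19%) of all. The cyclic AMP response element TGACGTCA was present in 1 of 16 lower, 1 of 44 higher and 3.53% of all promoters. The core GAGGAAGT, bound by the blood cell factor PU.1, was present in 4 of 44 higher, 0 of 16 lower and 3.37% of all promoters. Of the higher genes, Btla, Cd37, Cd82 and Itgb7 hold it.
The E-box CACGTG was found in 9 of 44 higher, 1 of 16 lower and 12.1% of all promoters. The lower gene was Dusp1, whose E-box lies within the stretch printed above and is not in capitals there. The CCAAT box CCAAT was found in 18, 5 and 41.2% in the same order. The AP-1 site TGACTCA, also accepted as TGAGTCA, was found in 1, 2 and 4.91%, and the CArG box in 1, 0 and 1.73%. Both strands were searched, and no 2 different motifs overlapped in the 3 stretches printed. A match describes the letters only and does not show that a factor binds.

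Beyond single calls, gene lists are described by their counts and medians, set against a median of -0.02 and 48% positive differences over all 3958 genes. The lists were drawn up with earlier results of these data known, and no test was run on a list. Genes are listed by their total over all 9 libraries, down to 8471 counts. A member low in MPX may thus be listed only through its counts in EA or CPX. That all or most listed members of a list are higher in EA can in part be given by this cut. Levels of a list in a library are means over its members on the log2 scale, with the mean of the 6 libraries at 0. With no scaling beyond column sums the median over all genes moved to 0.11, so small medians are read against that shift.

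The list of hormones and other genes that follow the size of fat stores had the lowest median of the 40 lists with at least 3 listed genes. Of 16 listed fat mass expansion genes, 15 had negative differences and 0 passed the test (0.556% of all genes passed as lower), with a median of -1.01. Lep, the satiety hormone leptin, stood at 1694, 7637 and 4483 CPM in MPX and 764, 1412 and 247 CPM in EA (-2.51, edgeR adjusted p = 0.0964). Trp53inp2, a gene of autophagy, stood at 790.2, 2342 and 1833 CPM in MPX and 636, 635 and 224 CPM in EA. Cav2, a caveolin, stood at 670.3, 1179 and 1013 CPM in MPX and 561, 606 and 262 CPM in EA. The groups did not overlap in these 3 genes, and MPX 2 was the lowest MPX library in each, nearest to EA. Cyp2e1, a cytochrome P450, was the exception with a positive difference and overlapping groups (674, 1253 and 662 CPM in MPX and 4404, 1095 and 3087 CPM in EA). The list's levels were 0.23, 1.01 and 0.73 in MPX and -0.46, 0.08 and -1.58 in EA, and without EA 8 its median was -0.70.

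Adipocyte genes as a group were also lower, chiefly in EA 8. Of 19 identity genes, 16 had negative differences, 0 passed and the median was -0.52, or -0.24 without EA 8. Adipoq, the hormone adiponectin, stood at 3055, 2694 and 3444 CPM in MPX and 2162, 1959 and 1558 CPM in EA (-0.69, edgeR adjusted p = 0.109). Pparg, the transcription factor of adipocyte formation, stood at 245, 257 and 283 CPM in MPX and 222, 194 and 135 CPM in EA (-0.51, edgeR adjusted p = 0.138). Lpl, the lipase that releases fatty acids from lipoproteins, stood at 8183, 16079 and 12744 CPM in MPX and 8057, 5064 and 3289 CPM in EA (-1.17, edgeR adjusted p = 0.121).
For Plin1, a coat protein of lipid droplets, the values were 2990.3, 2993 and 3485 CPM in MPX and 2544, 2583 and 1218 CPM in EA. For Cd36, a fatty acid carrier, they were 5807, 6653 and 6158 CPM in MPX and 4653, 4232 and 2745 CPM in EA. Slc2a4, the insulin-dependent glucose transporter, stood at 292, 234 and 308 CPM in MPX and 305, 274 and 167 CPM in EA with overlapping groups. In all 6 of these genes EA 8 had the lowest value of the 6 libraries. The levels of the identity list were 0.17, 0.06 and 0.29 in MPX and 0.15, -0.07 and -0.59 in EA, so EA 5 and EA 7 lay close to or within the MPX range and EA 8 far below it. That the B cell list was highest and the adipocyte list lowest in EA 8 is a measured fact, and its part in the falls was not tested. Of the 22 genes called lower, none of them in the identity list, 17 had their lowest EA value in EA 8, against 38.4% of all genes.

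Lipid synthesis genes did not move as a group. Of 17 fatty acid synthesis genes, 9 had positive and 8 negative differences, and the median was 0.12. Acacb alone passed, where 1.57% of all genes were called higher. Fasn, fatty acid synthase, stood at 2332, 3192 and 4139 CPM in MPX and 7000.1, 1552 and 1953 CPM in EA. Acly, which supplies its acetyl-CoA, stood at 277, 309.5 and 400.1 CPM in MPX and 607, 242 and 303 CPM in EA. In both, EA 5 alone was high, and without it the log2 differences were -0.83 and -0.23, and the median of the list was -0.83. Scd1, the main desaturase of fat, stood at 40069, 35596 and 45232 CPM in MPX and 26318, 20899.5 and 2209.8 CPM in EA, with EA 8 far below the others (-1.29, edgeR adjusted p = 0.285).
G6pdx and Pgd make NADPH in the pentose phosphate pathway, and neither passed. G6pdx stood at 299, 416 and 369 CPM in MPX and 199, 231 and 136 CPM in EA. Pgd stood at 320.1, 548 and 581 CPM in MPX and 297, 210.3 and 205 CPM in EA. Fads1, a desaturase of polyunsaturated fatty acids, stood at 93.6, 64.8 and 61.9 CPM in MPX and 117, 108 and 102 CPM in EA (0.57, edgeR adjusted p = 0.0991). Of 6 listed cholesterol genes Hmgcs1 alone passed, where 0.556% of all genes were called lower. Sc5d, a late enzyme of the pathway, stood at 216, 263 and 292 CPM in MPX and 125, 152 and 63.3 CPM in EA (-1.18, edgeR adjusted p = 0.0829). The list divided into 3 positive and 3 negative differences, among the former Srebf2 at 0.32, the gene of the SREBP factor for sterol genes.

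Triglyceride assembly and breakdown both had more negative than positive differences, with none passing. Of 14 assembly genes 10 were negative (median -0.32, or -0.19 without EA 8 and -0.56 without EA 5), and of 15 lipolysis and droplet genes 12 were (median -0.43). Dgat2, which adds the last fatty acid to triglyceride, stood at 1588, 3946 and 4329 CPM in MPX and 1345, 1159 and 567 CPM in EA (-1.68, edgeR adjusted p = 0.0884). Gpam, which starts glycerolipid synthesis, stood at 105, 129 and 132 CPM in MPX and 177, 166 and 175 CPM in EA (0.51, edgeR adjusted p = 0.0739), in the opposite direction. Mgll, which cleaves monoglycerides, stood at 2077, 2974 and 2604 CPM in MPX and 1424, 1298 and 515 CPM in EA. Plin3, a droplet protein, stood at 92.2, 89.8 and 87.6 CPM in MPX and 69.0, 68.9 and 71.3 CPM in EA (-0.37, edgeR adjusted p = 0.0721).

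Mitochondrial lists held no called gene. Fatty acid oxidation (20 genes, median -0.08), the citric acid cycle (16, -0.06), branched chain amino acid breakdown (16, -0.10) and nuclear encoded respiratory chain genes (26, -0.17) had negative medians, which for the last list were -0.06 without EA 8 and -0.34 without EA 5. In each of these lists EA 5 had the highest level of the 6 libraries and EA 8 the lowest, for oxidation 0.10, -0.02 and 0.16 in MPX and 0.44, -0.15 and -0.53 in EA. Cpt1a, which admits fatty acids to mitochondria, stood at 195, 233 and 183 CPM in MPX and 125, 148 and 157 CPM in EA (-0.51, edgeR adjusted p = 0.0884). Without EA 8 the medians of oxidation, citric acid cycle and branched chain lists turned positive, to 0.11, 0.11 and 0.08. With column sums as the only scaling they were 0.04, 0.06 and 0.01, below the median over all genes in that fit, 0.11. Without EA 5 they were -0.36, -0.38 and -0.31. Of 10 listed genes of the mitochondrial genome 9 were negative (median -0.30), a sign kept in every fit, at -0.15 without EA 7, -0.18 without EA 8 and -0.57 without EA 5. mt-Nd6, a subunit of respiratory complex I, stood at 1529, 1293 and 1038 CPM in MPX and 829.6, 731 and 516 CPM in EA (-0.89, edgeR adjusted p = 0.0884). mt-Nd5, another, stood at 4789, 5004 and 4121 CPM in MPX and 3406, 3009.8 and 2037 CPM in EA (-0.72, edgeR adjusted p = 0.129). In both, the groups did not overlap, whereas the list as a whole was highest in EA 5 and lowest in EA 8. Of 12 glycolysis genes 11 were negative (median -0.34, or -0.21 without EA 8 and -0.22 without MPX 7). The smallest p was that of Tpi1, triose phosphate isomerase, at 527, 768 and 745 CPM in MPX and 493, 318 and 241 CPM in EA (-0.96, edgeR adjusted p = 0.1).

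Basement membrane genes had negative differences in most members. Of 14 listed, 11 had negative differences, and the median was -0.57. Col15a1 alone passed (0.556% of all genes were called lower), and 8 had ranges that did not overlap (21.2% of all genes). Col4a1, a main chain of type IV collagen, stood at 1982, 2860.1 and 2617 CPM in MPX and 1376, 1006 and 1059 CPM in EA (-1.12, edgeR adjusted p = 0.0658). Col4a2, the chain paired with it, stood at 1199.9, 2286 and 1747 CPM in MPX and 736, 634 and 534 CPM in EA (-1.46, edgeR adjusted p = 0.0555). In both, the gap between the groups was wider than the range within EA and narrower than the range within MPX. Col18a1, whose fragment endostatin restrains vessel growth, stood at 508, 479 and 482 CPM in MPX and 289.7, 228 and 178 CPM in EA (-1.08, edgeR adjusted p = 0.0537). Nid2, which links laminin to type IV collagen, stood at 121, 257 and 206 CPM in MPX and 57.0, 79.1 and 37.7 CPM in EA (-1.74, edgeR adjusted p = 0.0607). None of these 4 passed, although each EA library lay below each MPX library. The list's levels were 0.24, 0.50 and 0.31 in MPX and -0.17, -0.27 and -0.62 in EA, and without EA 8 its median was -0.42.

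Of 10 listed interstitial collagens, 9 had negative differences (median -0.65, or -0.23 without MPX 2). Col5a3 alone passed, where 0.556% of all genes were called lower. Col5a1, the alpha 1 chain of type V, stood at 566, 465 and 471 CPM in MPX and 312, 231 and 230.4 CPM in EA (-0.96, edgeR adjusted p = 0.0549). Col5a2, its alpha 2 chain, stood at 477, 335 and 401 CPM in MPX and 262, 187 and 209.9 CPM in EA (-0.88, edgeR adjusted p = 0.0669). Col1a1, the main chain of type I collagen, stood at 2413, 785 and 939 CPM in MPX and 1094, 646 and 1581 CPM in EA, with groups that overlapped. In Col1a1 the high value was that of MPX 2, and without it the difference turned to 0.36. The type V chains thus had ranges that did not overlap between groups, and the type I chain overlapped. Ranges did not overlap in 4 of the 10 listed genes, where 21.2% of all genes were lower in that sense. Besides the type V chains this held for Col6a2, a type VI chain. Scaled over all 9 libraries, Col6a2 stood at 821, 640 and 676 CPM in MPX and 508, 313 and 292 CPM in EA.
Of 28 crosslinking and matricellular genes 18 were negative (median -0.24). Lox alone passed, where 0.556% of all genes were called lower. Sparc, a matricellular protein that binds collagen, stood at 4136, 6801 and 5698 CPM in MPX and 2368, 2096 and 1552 CPM in EA (-1.47, edgeR adjusted p = 0.0588). Thbs1, thrombospondin, stood at 182, 226 and 356 CPM in MPX and 97.9, 140.1 and 72.1 CPM in EA (-1.30, edgeR adjusted p = 0.0769). P4ha1, which hydroxylates prolines in collagen, had a positive difference, at 62.2, 42.5 and 69.6 CPM in MPX and 90.2, 94.2 and 146 CPM in EA (0.92, edgeR adjusted p = 0.0838). Without MPX 2 the list's median was 0.07.

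Of 21 endothelial genes 20 had negative differences, 0 passed and the median was -0.31, or -0.20 without EA 8 and -0.17 without MPX 5. Cldn5, the tight junction claudin of endothelium, stood at 207, 397 and 236 CPM in MPX and 143, 152 and 63.8 CPM in EA (-1.23, edgeR adjusted p = 0.1). Pecam1, a junction protein, stood at 382, 549.6 and 389 CPM in MPX and 314, 401 and 349 CPM in EA, with overlapping groups. The list's levels were 0.05, 0.46 and 0.04 in MPX and -0.20, 0.06 and -0.40 in EA, so EA 7 lay at the level of MPX 2 and MPX 7. Among 10 smooth muscle and pericyte genes, Mcam stood at 436, 970.1 and 656 CPM in MPX and 290.1, 387 and 157 CPM in EA (-1.31, edgeR adjusted p = 0.0993), and the median was -0.16, or -0.0077 without MPX 5 and -0.33 without MPX 7.

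**Figure D4:**
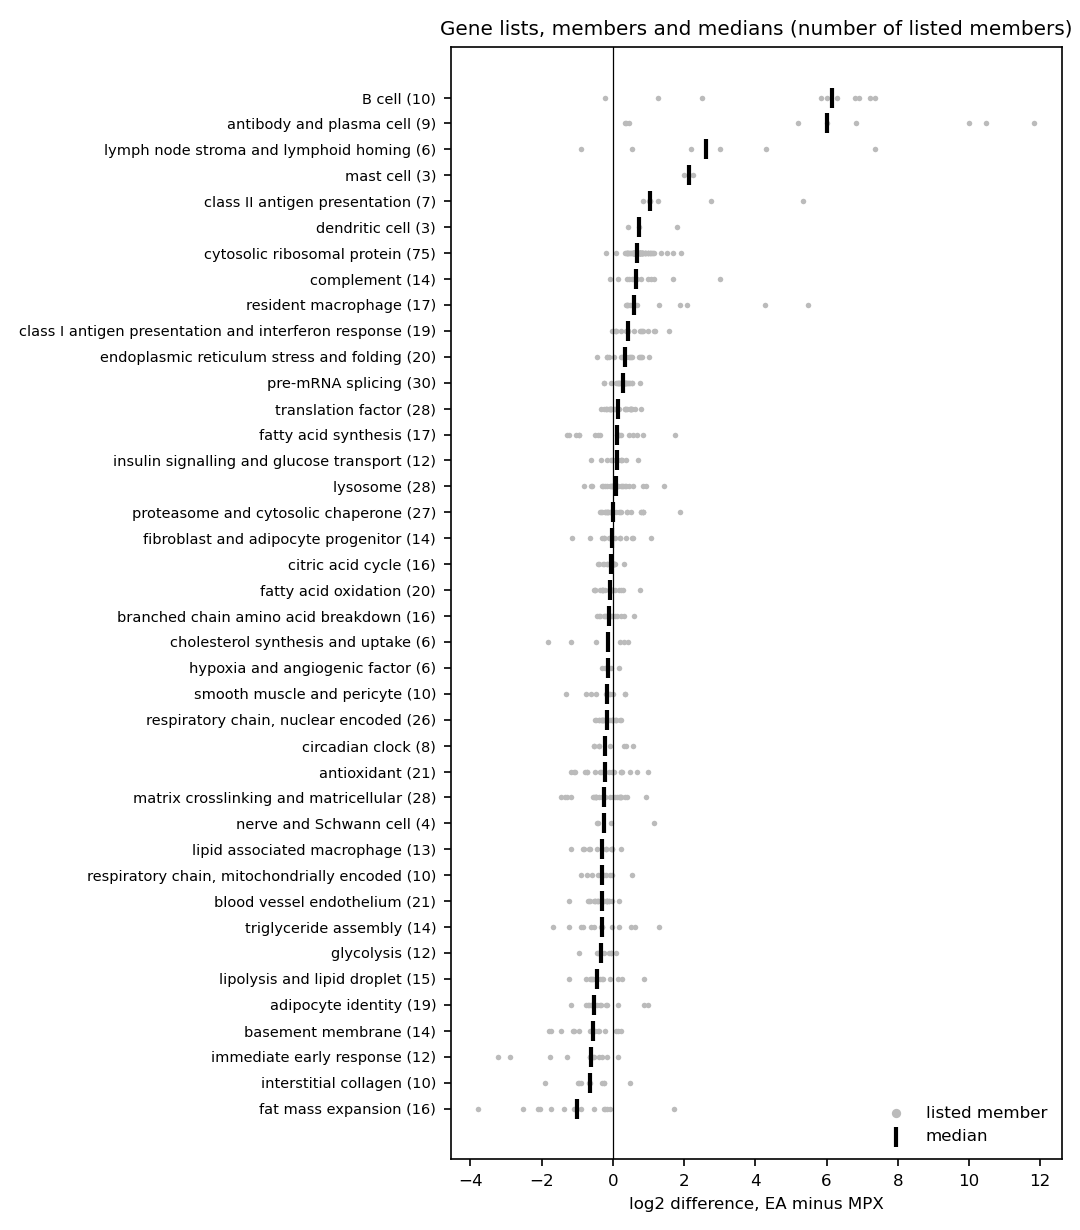
Each row is 1 of 40 gene lists with at least 3 listed genes, ordered by its median; grey points are members' log2 differences EA minus MPX and the black bar is the median. B cell and antibody lists lie at the top near 6, and the fat mass expansion list lies at the bottom at -1.01.

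All 17 listed resident macrophage genes had positive differences, 2 passed (Marco and Timd4, with 1.57% of all genes called higher), and the median was 0.59, or 0.33 without EA 8, 0.36 without MPX 5 and 1.17 without MPX 2. Lyve1, a hyaluronan receptor of resident macrophages and lymphatic vessels, stood at 56.7, 28.9 and 57.9 CPM in MPX and 182, 114 and 232 CPM in EA (1.88, edgeR adjusted p = 0.054). Siglec1, a sialic acid receptor, stood at 128, 25.1 and 47.6 CPM in MPX and 229, 174 and 441 CPM in EA (2.07, edgeR adjusted p = 0.0971). The groups did not overlap in either. Adgre1, carried by most macrophages, stood at 213, 48.9 and 71.8 CPM in MPX and 97.9, 81.9 and 269.5 CPM in EA. Cd68, a lysosomal protein of macrophages, stood at 205, 71.6 and 86.7 CPM in MPX and 119.5, 102 and 257 CPM in EA. In these general markers MPX 2 and EA 8 were the high libraries and the groups overlapped. Without EA 8 their log2 differences turned to -0.31 and -0.13, while those of Marco and Timd4 were 5.18 and 4.36.
Of 13 lipid associated macrophage genes 12 had negative differences (median -0.30, or -0.17 without EA 5 and -0.53 without EA 8) and none passed. Ctsl, a lysosomal protease, stood at 759, 929.8 and 793 CPM in MPX and 376, 413 and 628 CPM in EA (-0.81, edgeR adjusted p = 0.0938). Fabp5, a fatty acid binding protein, stood at 225, 374 and 254 CPM in MPX and 233, 104 and 140.4 CPM in EA. Some members, Lpl and Cd36 among them, are abundant in adipocytes, so their levels here do not stand for macrophages alone. Whether this list differs from that of resident macrophages was not tested.

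All 3 listed mast cell genes of 12 had positive differences and ranges that did not overlap (19.8% of all genes were higher in that sense), and none passed. Cpa3, a carboxypeptidase, stood at 52.6, 9.64 and 11.2 CPM in MPX and 156, 60.4 and 138 CPM in EA. Cma1, a chymase, stood at 58.3, 16.9 and 14.1 CPM in MPX and 155, 59.2 and 144 CPM in EA. Mcpt4, a further chymase, stood at 79.2, 19.8 and 19.0 CPM in MPX and 236, 96.7 and 186 CPM in EA. In each, EA 7 lay only a little above MPX 2, and the edgeR adjusted p was 0.101, 0.0993 and 0.0938. The rest of the list, such as the receptor Kit, was not analysed here. Because genes are listed by their total over all 9 libraries, these low genes may be listed only through their EA or CPX counts. The shared direction of the 3 is therefore in part given by that cut.

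All 7 class II genes had positive differences (median 1.05) and 2 passed, H2-Ob and Ciita (1.57% of all genes were called higher). Ciita, the master regulator of class II genes, stood at 29.7, 14.9 and 15.6 CPM in MPX and 70.7, 114 and 218 CPM in EA (2.74, edgeR adjusted p = 0.0474). Of 19 class I and interferon genes 18 were positive (median 0.43) and none passed. H2-Q7, a nonclassical class I molecule, stood at 71.5, 36.8 and 52.9 CPM in MPX and 111, 168 and 199 CPM in EA (1.57, edgeR adjusted p = 0.0549). Tap1, part of the transporter of peptides for class I loading, stood at 71.7, 45.5 and 54.6 CPM in MPX and 91.4, 129 and 167 CPM in EA (1.17, edgeR adjusted p = 0.0658). The H2-Q genes resemble each other closely, so reads of H2-Q7 may have been shared with them. Of 14 complement genes 13 were positive (median 0.64, or 0.28 without EA 8 and 1.15 without MPX 2). Clu, a chaperone that blocks the terminal complex, passed at 74.1, 46.1 and 63.4 CPM in MPX and 339, 366 and 776 CPM in EA (3.01, edgeR adjusted p = 0.0229), as did Cd55. Cfd, the protease adipsin secreted by adipocytes, stood at 7774, 3316 and 3195 CPM in MPX and 10351, 6877 and 11294 CPM in EA, with overlapping groups (1.00, edgeR adjusted p = 0.166).

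Of 75 listed ribosomal protein genes, 74 had positive differences, 51 had ranges that did not overlap (19.8% of all genes were higher in that sense) and 0 passed the test, with a median of 0.68. Rpl12, of the large subunit, stood at 326, 222 and 263 CPM in MPX and 445, 604 and 776 CPM in EA (1.17, edgeR adjusted p = 0.0656). Rps7, of the small subunit, stood at 363, 239 and 301 CPM in MPX and 487, 634 and 845 CPM in EA (1.12, edgeR adjusted p = 0.0705). The list's levels were -0.07, -0.63 and -0.36 in MPX and -0.01, 0.26 and 0.81 in EA: the lowest EA library, EA 5, lay just above the highest MPX library, MPX 2. Without EA 8 the median was 0.45. Ribosomal protein genes have many pseudogenes, so reads of single members may have been split. Splicing genes were positive in 27 of 30 (median 0.29), translation factors in 17 of 28 (0.14, or 0.06 without EA 8), and endoplasmic reticulum folding genes in 16 of 20 (0.35, or 0.09 without EA 8), with no call in any.

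The 27 proteasome and chaperone genes divided into 13 positive and 14 negative differences. Their median was -0.01, and its sign turned with the scaling. Ranges did not overlap in 9 higher and 5 lower members, where 19.8% and 21.2% of all genes were higher and lower in that sense. The members with the smallest p were higher in EA. Hsph1, a chaperone induced by heat shock, stood at 40.1, 41.9 and 112 CPM in MPX and 146, 193 and 385 CPM in EA (1.90, edgeR adjusted p = 0.0847). Dnajb1, a co-chaperone, stood at 54.0, 62.1 and 86.1 CPM in MPX and 102, 107 and 141 CPM in EA (0.79, edgeR adjusted p = 0.0832). Dnaja1, another, stood at 206, 198 and 318 CPM in MPX and 351, 409 and 488 CPM in EA (0.79, edgeR adjusted p = 0.0938). In these 3 genes MPX 7 was the highest MPX library and still below EA 5. None of them passed.

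Immediate early genes, which answer a stimulus within minutes and are then switched off, had negative differences in 11 of 12 listed members, with a median of -0.61 and 1 call (Dusp1), where 0.556% of all genes were called lower. Fos, a partner in the AP-1 factor, stood at 366, 23.8 and 190.2 CPM in MPX and 13.8, 17.5 and 30.7 CPM in EA. Egr1, a zinc finger factor, stood at 362, 49.5 and 211 CPM in MPX and 19.1, 30.3 and 34.9 CPM in EA. Cyr61, a matricellular protein induced by growth factors, stood at 168, 167 and 248 CPM in MPX and 87.9, 55.1 and 30.2 CPM in EA. In Fos and Egr1 the EA libraries were low, whereas MPX spanned from 23.8 to 366 CPM for Fos, and MPX 5 lay near or within the EA range (edgeR adjusted p = 0.0847 and 0.0709). Without MPX 5 both passed. The list's levels were 0.73, 0.03 and 0.67 in MPX and -0.55, -0.31 and -0.57 in EA, and without EA 8 the median was -0.54.

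Antioxidant enzymes held several members near the threshold. Of 21 listed, 13 had negative differences (median -0.23, or -0.09 without EA 8 and -0.14 without EA 7) and none passed. Prdx5, a peroxiredoxin, stood at 284, 433 and 377 CPM in MPX and 178, 203 and 131 CPM in EA (-1.10, edgeR adjusted p = 0.0629). Gstm2, a glutathione transferase, stood at 109, 166 and 165 CPM in MPX and 77.8, 80.3 and 53.9 CPM in EA (-1.05, edgeR adjusted p = 0.0654). Sod3, the secreted superoxide dismutase, stood at 725, 1266 and 1161 CPM in MPX and 492, 605 and 302 CPM in EA (-1.17, edgeR adjusted p = 0.0857). Insulin signalling genes divided into 7 positive and 5 negative differences (median 0.11, or 0.01 without MPX 5), and none passed. Ranges did not overlap in 1 higher and 2 lower members. The higher one was Tbc1d4, the Akt target that releases glucose transporter vesicles, at 79.4, 61.8 and 88.3 CPM in MPX and 148, 114 and 111 CPM in EA (0.70, edgeR adjusted p = 0.0784). Scaled over all 9 libraries, Akt2 stood at 536, 558 and 566 CPM in MPX and 479, 503 and 375 CPM in EA. Clock genes had a median of -0.23 over 8, or 0.03 without MPX 5, and Clock itself stood at 132, 127 and 155 CPM in MPX and 105, 90.2 and 90.2 CPM in EA (-0.54, edgeR adjusted p = 0.0721).

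**Figure D5:**
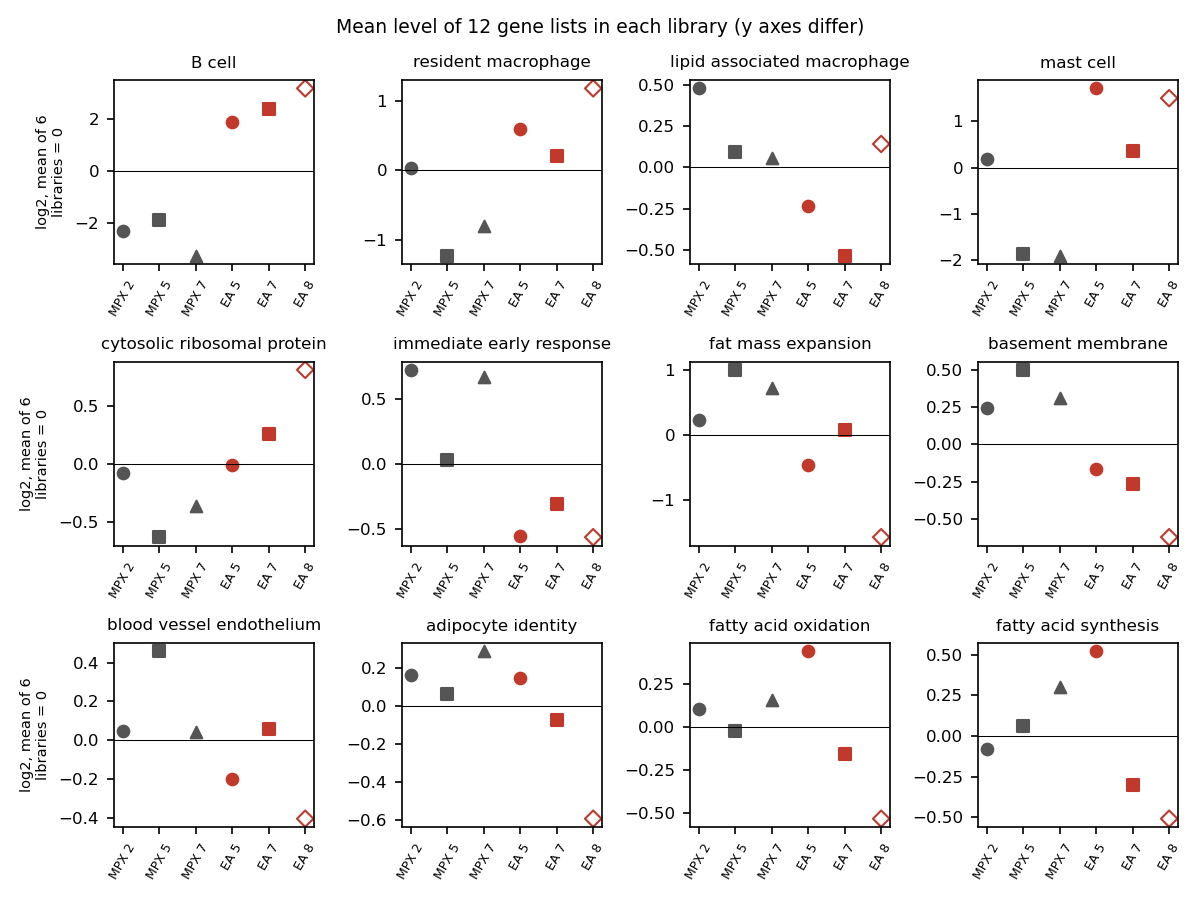
Each panel gives the mean level of 1 gene list in each library (log2 scale, mean of the 6 libraries at 0; y axes differ between panels), MPX in grey and EA in red. The groups are apart for the B cell, resident macrophage, mast cell, ribosomal, immediate early, fat mass and basement membrane lists, while for adipocyte identity EA 5 lies within the MPX range and EA 8 is far the lowest.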

How the data were processed

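The authors deposited 1 table of raw counts per gene, with each gene's name, position and length; gene length in bases is the authors' other value and was not used. Its genes stand in falling order of their total, down to 8471 counts over 9 libraries, so only abundant genes are covered and column sums are not library depths. Per the submitters' processing notes, HISAT2 2.0.5 and mm10 were used. No source used here names the counting program, its annotation or its strand setting. Libraries were made from total RNA with a TruSeq kit, per the labels' protocols. For 11 genes the name was restored from the gene ID (10 had become dates), and 3802 of 3958 genes lie at the same position in GENCODE M21.

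The 6 EA and MPX libraries were fitted with edgeR 4.0.16 (R 4.3.3, limma 3.58.1), with TMM factors, filterByExpr (0 genes removed) and the robust quasi-likelihood test. P-values were adjusted by Benjamini-Hochberg over 3958 genes, and genes under 0.05 were called. SE is the log2 difference over the root of the F statistic. The fit was tested on simulated data. Chi-square per degree of freedom between libraries of a group was at least 71.5, so no library was a copy of another. Lists were described by counts, medians and levels, and no test was run on them.

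The members, the 50 gene lists and the tests were chosen with earlier results of these data known. The rule named all genes called lower, the 25 called higher with the smallest p outside 5 lymphoid lists, 6 from those lists, up to 4 genes a list by p and a set of 22 genes, where listed; some genes it named are not reported here. Cd37, Cd82 and Oxtr were chosen after their values were seen. The closing section gives the effect of the other scalings and filters, DESeq2 1.42.0, limma voom, all 9 libraries, a fold minimum, a block and libraries left out.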

Additional observations from a re-analysis of the deposited data

Results flagged for a closer look

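The CPX libraries entered no comparison here, yet the summed level of the 18 lymphoid genes called higher in EA was above that of MPX in each of them. Scaled over all 9 libraries, it was 1332 CPM in CPX 4, 27320.0 CPM in CPX 6 and 3221 CPM in CPX 8, against 203 to 317 CPM in MPX and 2994 to 11319 CPM in EA. The 18 genes were called for being lower in these same MPX libraries than in EA. A level above MPX is therefore in part given by that choice. In CPX 6 all 18 genes lay above every MPX library, but in CPX 8 only 10 and in CPX 4 only 4 did. The sums in CPX 4 and CPX 8 were carried by a few antibody genes: Igkc, the kappa light chain, stood at 964, 11822 and 2387 CPM in CPX 4, 6 and 8, and Jchain, which joins antibody units, at 196, 1546 and 343 CPM. In the same order Cd79a stood at 2.37, 489 and 4.96 CPM and Cr2 at 0.189, 400.3 and 2.44 CPM, low in CPX 4 and CPX 8. No CPX library carries a treatment label.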

How the results depend on the processing

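All 84 called genes kept their direction in each of 17 alternatives, and 29 of 40 list medians kept their sign. DESeq2 called 1295 genes (699 higher, 596 lower), the 84 among them, whereas limma voom called 0 (0 higher, 0 lower; smallest adjusted p 0.103). With all 9 libraries edgeR called 0 (0 higher, 0 lower; smallest adjusted p 0.775), and against a minimum fold of 2 it called 18, all higher (0 lower). Scalings by DESeq2 size factors, upper quartile and column sums gave 88, 91 and 107 calls, the filter at 5 CPM 84, no filter 84 and robust off 86. Leaving out 1 library gave 0 to 234 calls (0 to 198 higher, 0 to 45 lower): 104 without MPX 2, 15 without MPX 5, 0 without MPX 7, 234 without EA 5, 19 without EA 7 and 30 without EA 8. Without EA 5, 76 of the 84 were among those called, and without MPX 2, 54. The cause of these changes was not tested. With the title number as a replicate block edgeR called 145 genes (85 higher, 60 lower), 52 of them among the 84. Only the numbers 5 and 7 occur in both groups, their libraries' deviations correlated at 0.0221 and 0.126 across genes, and no label says that a number marks a shared mouse, so the block is not read as a pairing.

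For uncalled genes the sign turned in places. Fasn was at -0.17 with limma voom and -0.14 with the block, and between -0.83 (without EA 5) and 0.48 (without EA 7) when 1 library was left out. Slc2a4 was at 0.11 with the block and ran from -0.29 to 0.060, Acly from -0.23 to 0.47, Col1a1 from -0.66 to 0.36, Adgre1 from -0.31 to 1.31 and Cd68 from -0.13 to 1.01 over the libraries left out. Among abundant genes such as these, the spread between libraries and not counting depth limits the precision.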

Other observations

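Of the 62 genes called higher in EA, 59 had their highest CPX value in CPX 6, the library richest in B cell transcripts, and 3 had their lowest there, against 41.5% of all 3958 genes for each. These 3, singled out after their values were seen, are the metabolic enzymes Prodh, Aacs and Acacb. Scaled over all 9 libraries, Prodh stood at 213, 25.8 and 129 CPM in CPX 4, 6 and 8, Aacs at 529, 102 and 342 CPM and Acacb at 497, 114 and 383 CPM. In CPX 4 and CPX 8 all 3 genes lay above every MPX library, and in EA they were lowest in EA 8, the EA library with the highest B cell level. They were called for being lower in the same MPX libraries than in EA, so standing above MPX is in part given by that choice. Of the 22 genes called lower, 18 had their lowest CPX value in CPX 6 and 4 lay between the others, with 41.5% of all genes lowest there. In CPX 4, 6 and 8, Col5a3 stood at 204, 63.4 and 549 CPM, Adamts5 at 176, 94.4 and 627 CPM and Alcam at 48.2, 52.6 and 88.6 CPM.

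Oxtr, the oxytocin receptor, had the lowest log2 difference of all genes tested and was chosen after its values were seen. It stood at 30.0, 449.9 and 212 CPM in MPX and 4.93, 17.9 and 1.25 CPM in EA (-4.83, edgeR adjusted p = 0.0772), and did not pass. Both groups varied widely between libraries, and EA 8 was the lowest.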
